A study of Mus musculus with 8 samples.

Results

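Imprinted growth genes and the insulin-like growth factor (IGF) axis were compared between enamel organs of the secretory stage (P5) and the maturation stage (P12). The set holds 10 of the 54532 genes in the deposited count table, taken by gene symbol: Igf2, H19, Dlk1, Meg3, Plagl1, Peg3, Mest, Cdkn1c, Igf1 and Igf1r. The 8 RNA-seq libraries were made from first molar enamel organs of untreated wild type C57BL/6 pups. Of the libraries, 4 were from pups of 5 days and 4 from pups of 12 days of age. Each library pooled the enamel organs of 5 pups after removal of soft tissue from the pulp chambers. P5 libraries carry the replicate numbers 1, 3, 4 and 5, and P12 libraries the numbers 1 to 4. The sex of the pups is not given in the sources used here, and parental alleles were not measured.

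An imprinted gene is transcribed mainly from the copy of 1 parent. Many such genes set the growth of the embryo and the young animal, with paternally expressed genes such as Igf2, Dlk1, Peg3, Mest and Plagl1 and maternally expressed ones such as H19, Meg3 and Cdkn1c. The ligands IGF1 and IGF2 signal through the receptor IGF1R, while IGF2R takes IGF2 up for degradation. Binding proteins (IGFBPs) hold the ligands outside the cell, and proteases that cut the binding proteins set them free.

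All 10 genes had enough counts to be tested. At P12, Igf1, Plagl1, H19 and Igf1r were higher, Meg3, Cdkn1c, Peg3, Dlk1 and Igf2 were lower, and Mest did not pass the threshold. Adjusted p-values come from edgeR (quasi-likelihood test, Benjamini-Hochberg method) fitted to all genes, and log2FC is the log2 fold change of P12 over P5. Of the 16440 genes tested, 57.2% were called at an adjusted p under 0.05 (28.8% higher and 28.4% lower at P12), so that 9 called genes of 10 stand against a tissue in which most genes differed. The median log2FC of the 10 genes was -0.06, against 0.01 over all genes tested. For 7 of the 10 the libraries of both ages did not overlap, which was the case for 52.5% of all genes tested (50.6% were both called and without overlap). The samples are bulk tissue, so fewer cells of a type and less RNA per cell cannot be told apart.

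**Figure D1:**
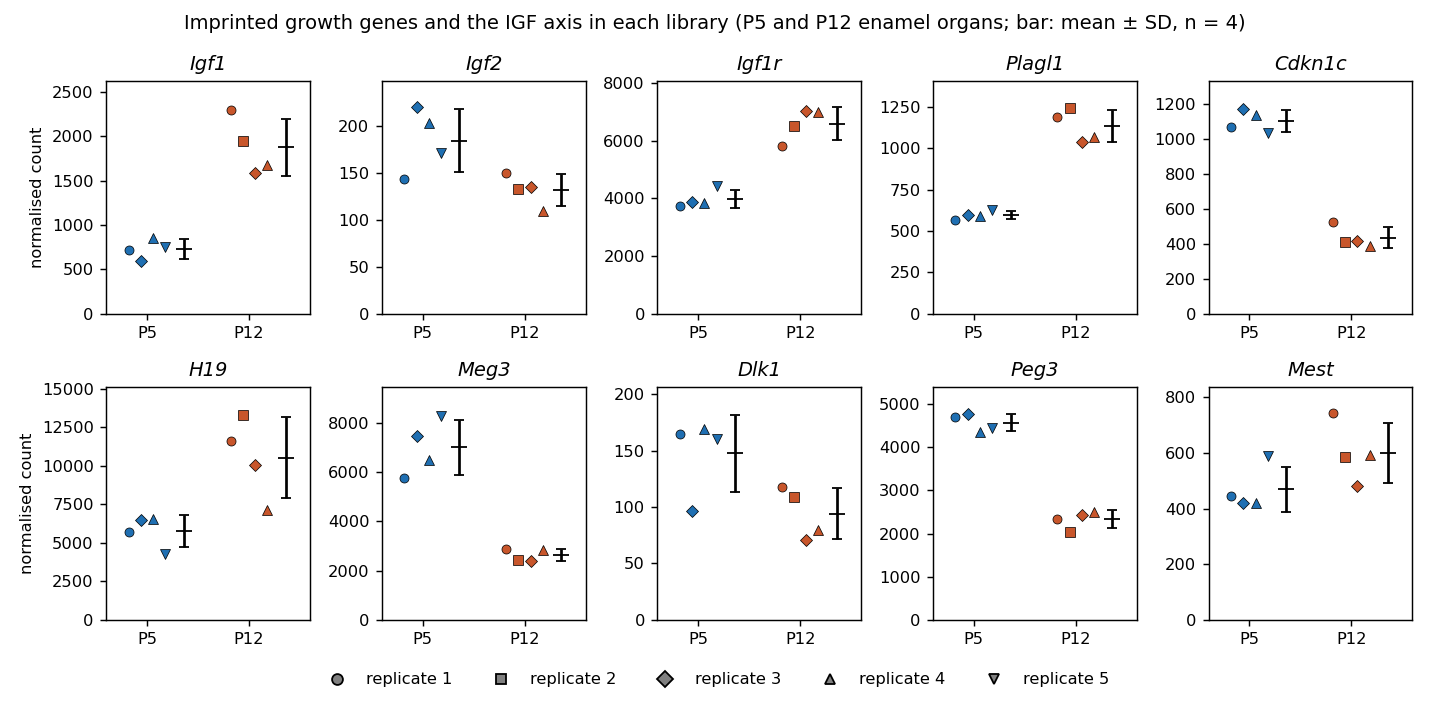
Normalised count (linear axis from 0) of each of the 10 genes in the 4 P5 and 4 P12 libraries, with a symbol for each replicate number and the mean ± SD beside the points. Igf1, Igf1r, Plagl1 and H19 sit higher in all P12 libraries, Cdkn1c, Meg3 and Peg3 sit lower, and Igf2, Dlk1 and Mest overlap between the ages.

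Total counts ranged from 16574548 to 20262601 (P5) and from 17588152 to 22013456 (P12), and values are given as normalised counts (per TMM-scaled library, set to the average library). A value after ± is the SD of the 4 libraries of an age, and SE is the standard error of a log2FC. A count of 3, taken as the floor, corresponds to 2.2 to 3.95 normalised counts, and only counting error is covered by it. The labels call the material epithelially derived cells. Markers of enamel epithelium summed to 5023524 to 5660507 normalised counts at P5 and 750808 to 1216828 at P12 (5 of 11 higher, 5 lower), yet markers of other cells were present at both ages too. Those of mesenchyme and fibroblasts summed to 891725 to 1072243 and 758439 to 1031285 (7 of 11 higher, 2 lower), and those of odontoblasts and bone to 164200 to 217627 and 194953 to 225523 (3 of 7 higher, 1 lower). These sums rest on a few abundant genes. At P5 that of enamel epithelium was mostly Amelx, Ambn and Enam, with means of 2705332, 1978134 and 589755. Each of them fell, to 50552, 333611 and 598 at P12. The 5 epithelial markers that rose were, by their means, Odam (14286 to 340036), Krt14 (34060 to 159090), Amtn (14511 to 52555), Klk4 (2392 to 22303) and Epcam (491 to 983). The mesenchyme sums were mostly Col1a1 and Col1a2, with means of 620261 and 357161 at P5. A sum is therefore no measure of the amount of a tissue. No marker was at 0 in all libraries. Markers of endothelium and pericytes summed to 4860 to 5591 normalised counts at P5 and 11930 to 13579 at P12, with 7 of 7 higher at P12, and markers of oral mucosa to 443 to 869 and 4065 to 32927, with 5 of 5 higher. Leukocyte markers summed to 743 to 1057 and 1162 to 1513, with 3 of 4 tested higher. Skeletal muscle markers were few, summing to 463 to 830 at P5 and 184 to 241 at P12, with 3 of 3 tested lower. The muscle factors Myod1, Myog and Pax7 and the myosin gene Myh3 were too low to test. Beside these marker counts, 28.8% of all genes tested were higher and 28.4% lower at P12. The part of these cell types in the results below was not tested.

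Igf1, the ligand that growth hormone induces in many tissues, was at 713, 596, 859 and 750 normalised counts in P5 replicates 1, 3, 4 and 5. It was at 2301, 1953, 1585 and 1678 in P12 replicates 1, 2, 3 and 4. The ages did not overlap, and the rise was 2.58-fold (log2FC 1.37, SE 0.13, adjusted p = 5.7e-06). Igf1 (ENSMUSG00000020053) occupies chromosome 10, positions 87858265 to 87937042 (GRCm38, forward strand), and shares no exonic bases with another gene.

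Igf2, the ligand most used in fetal growth, was at 32.3 normalised counts per kilobase of gene length at P5, against 73.7 for Igf1. Divided by the length of its unshared exons alone, the level of Igf2 was 91, so that the order of both ligands at P5 depends on how shared exons were counted. Its libraries held 144, 220, 203 and 171 at P5 and 150, 133, 135 and 109 normalised counts at P12, in the order of replicates above. Only P12 replicate 1 lay within the P5 range, and the fall was 1.4-fold (log2FC -0.48, SE 0.16, adjusted p = 0.021). This call did not hold without P5 replicate 3 (log2FC -0.39, adjusted p = 0.07) or without P5 replicate 4 (-0.44, adjusted p = 0.058), nor with scaling by total count (-0.10, adjusted p = 0.6), which shifts the median log2FC of all genes from 0.01 to 0.38.

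The gene model limits the level of Igf2 itself. Igf2 (ENSMUSG00000048583) lies on chromosome 7, from 142650766 to 142666816 on the reverse strand, and 62.8% of its exonic bases are also exons of Gm49394, a protein-coding gene model on the same strand, while the antisense gene Igf2os takes 1.7%. Gm49394 was at 0 in all 8 libraries. In the whole table, 171 of 172 genes whose exons lie inside exons of a same-strand gene with a mean count of at least 1000 were at 0 in every library, against 41.9% of all other genes. Whether reads in shared exons were dropped or credited to the outer gene was not tested, and the level of Igf2 may be too low for that reason. The comparison of the ages uses the same exons in all libraries.

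The ratio of Igf1 to Igf2 transcripts moved with age. Within a library the ratio of Igf1 to Igf2 counts, not divided by length, ranged from 2.71 to 4.96 at P5 and from 11.7 to 15.3 at P12. On the log2 scale the ratio was 1.98 ± 0.38 at P5 and 3.81 ± 0.18 at P12 (p by exact two-sided permutation = 0.0286, the smallest that 4 against 4 libraries allow, or 0.0381 after Benjamini-Hochberg adjustment over 4 ratios). A ratio within a library does not depend on the scaling between libraries.

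Igf1r, the signalling receptor of both ligands, was at 3728, 3870, 3839 and 4415 normalised counts at P5 and at 5823, 6495, 7030 and 7002 at P12. No P12 library reached down to the P5 range, and the rise was 1.66-fold (log2FC 0.73, SE 0.08, adjusted p = 1.8e-05). The gene (ENSMUSG00000005533) spans chromosome 7 from 67952827 to 68233668 on the forward strand, with no shared exonic bases.

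Neither of the other receptors was called higher. Igf2r, the clearance receptor of IGF2 and itself an imprinted gene, was at 2098 to 2340 normalised counts at P5 and 2128 to 2541 at P12, with log2FC 0.08 (SE 0.07, adjusted p = 0.31). Total count scaling gave 0.46 (adjusted p = 0.00019), close to its shift of all genes. Insr, the insulin receptor, fell from 1895 ± 87 to 1314 ± 114, log2FC -0.53 (adjusted p = 7.7e-05). The log2 ratio of Igf1r to Igf2r was 0.84 ± 0.07 at P5 and 1.49 ± 0.20 at P12, without overlap (p by exact two-sided permutation = 0.0286, adjusted over the 4 ratios 0.0381).

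**Figure D2:**
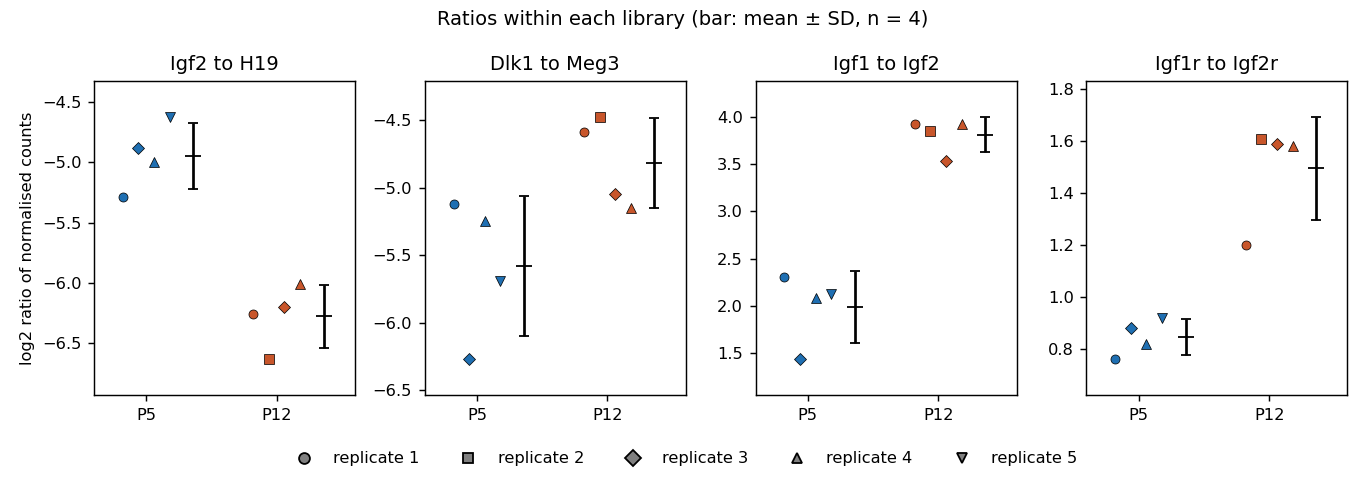
Log2 ratio of the normalised counts of 2 genes within each library (pseudocount 1), by age, with the mean ± SD of 4 libraries. Igf2 to H19 is lower at P12 and Igf1 to Igf2 and Igf1r to Igf2r are higher in all P12 libraries, while Dlk1 to Meg3 overlaps between the ages.

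Of 25 further genes of the IGF axis, 22 were tested. At P12, 11 of them were higher, 7 were lower and 4 were not called, with a median log2FC of 0.29, against 57.2% called (28.8% higher and 28.4% lower) and a median of 0.01 among all genes tested. With total count scaling the split was 14 higher and 5 lower.

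The largest rises were those of Pappa2, Stc2, Stc1 and Htra1. Pappa2, a metalloprotease that cuts IGFBPs, was at 29.6, 22.4, 9.23 and 21.2 normalised counts at P5 and at 765, 484, 274 and 334 at P12, log2FC 4.49 (SE 0.39, adjusted p = 2.4e-06). Stanniocalcins, secreted inhibitors of the pappalysin proteases, were also higher: Stc2 rose from 65.9 ± 16.6 to 629 ± 102 and Stc1 from 55.5 ± 11.5 to 480 ± 35.6, with log2FC of 3.25 and 3.11. Pappa, the relative of Pappa2, had log2FC 1.29 (adjusted p = 0.016). It was low and overlapped between the ages, at 9 to 18.5 normalised counts at P5 and 15.1 to 47.3 at P12. Htra1, a secreted serine protease that can also cut binding proteins, rose from 320 to 526 normalised counts at P5 to between 1769 and 4222 at P12 (log2FC 2.90, adjusted p = 3.0e-06).

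The binding proteins moved in both directions. Igfbp3, the main carrier of IGFs in blood, was at 2506 to 3621 normalised counts at P5 and 10988 to 13854 at P12, a 3.67-fold rise (log2FC 1.88, adjusted p = 2.8e-07), and Igfbp7, Igfbp6 and Igfbp4 rose as well, with log2FC of 1.52, 0.86 and 0.51. Igfbp5 and Igfbp2 fell, with log2FC of -0.57 and -0.48, calls that did not hold with total count scaling (adjusted p = 0.27 and 0.24). Per kilobase of gene length Igfbp2 had the highest mean of the Igfbp1 to Igfbp7 transcripts at P5, at 4129 normalised counts, and Igfbp3 at P12, at 3773. At P5 the libraries of Igfbp2 (3846 to 4621) overlapped those of Igfbp5 (2820 to 4090). Not divided by length, Igfbp5 had the highest mean at both ages, 19783 and 13353 normalised counts. At P12 its libraries overlapped those of Igfbp3.

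Inside the cell, Irs2, an adaptor of the insulin and IGF receptors, fell 2.01-fold (log2FC -1.01, adjusted p = 9.6e-05), while its relative Irs1 was not called (log2FC 0.02, adjusted p = 0.88) except with total count scaling, where it was higher (0.40, adjusted p = 0.02). Grb10, an imprinted adaptor that restrains both receptors, rose from 871 ± 98.4 to 1945 ± 288, log2FC 1.16 (adjusted p = 4.8e-06).

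The IGF2 mRNA-binding proteins differed among themselves. Igf2bp3 was at 960, 1008, 999 and 904 normalised counts at P5 and at 202, 186, 276 and 340 at P12, a 3.88-fold fall (log2FC -1.95, adjusted p = 1.5e-06). Igf2bp2 rose from 337 ± 18.6 to 476 ± 38.8, and Igf2bp1 was too low to test, with counts of 4 to 14 at P5 and 1 to 12 at P12. The insulin gene Ins2, the neighbour of Igf2, had 0 counts in all 8 libraries.

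**Figure D3:**
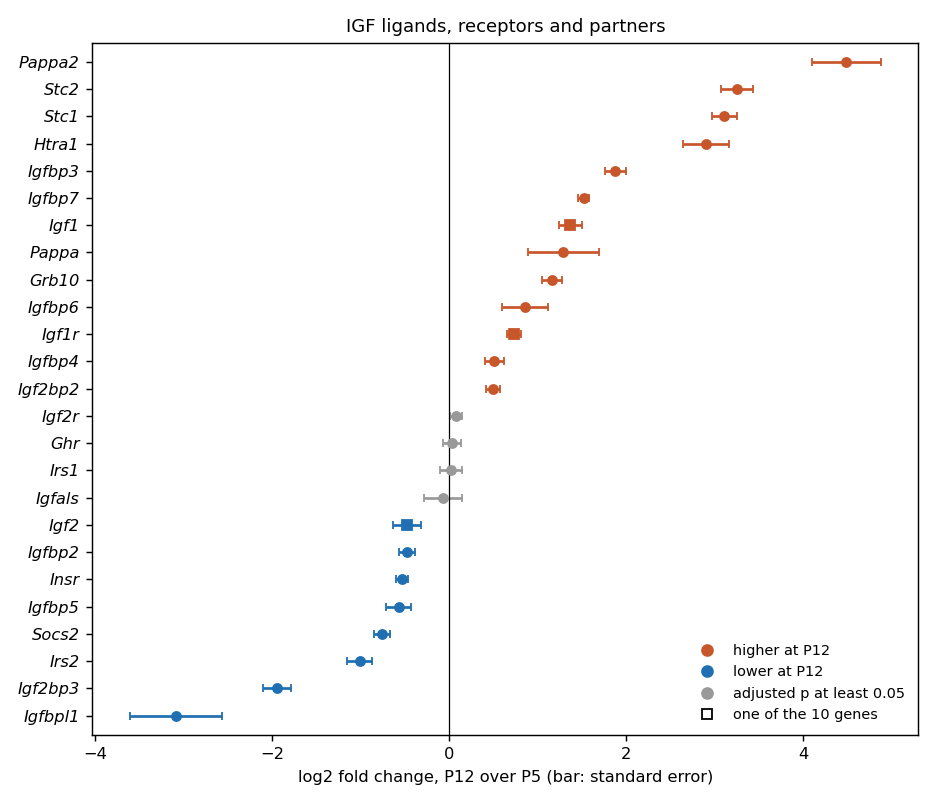
Log2 fold change (P12 over P5, bar: standard error) of the 22 tested partners with Igf1, Igf2 and Igf1r as squares, orange where higher, blue where lower and grey where the adjusted p was at least 0.05. Pappa2, Stc2 and Stc1 have the largest rises (4.49, 3.25 and 3.11) and Igfbpl1 and Igf2bp3 the largest falls (-3.09 and -1.95).

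H19 (ENSMUSG00000000031) is a non-coding RNA that lies 73 kb from Igf2 on chromosome 7, from 142575529 to 142578143 on the reverse strand, and is expressed from the other parental chromosome. Normalised counts at P5 were 5690, 6507, 6521 and 4276, against 11607, 13273, 10033 and 7094 at P12. P12 replicate 4 was lowest at that age and still above the P5 range, and the rise was 1.83-fold (log2FC 0.87, SE 0.18, adjusted p = 0.0018).

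Per kilobase of gene length H19 had the highest level of the 10 genes at both ages, although in normalised counts not divided by length the P5 mean of Meg3 was higher, with overlapping libraries (7004 ± 1113 against 5748 ± 1056). Its level per kilobase was 2337 normalised counts at P5 and 4269 at P12, against 32.3 and 23.1 for Igf2. The same counts divided by the length of unshared exons alone, which applies if reads in shared exons were dropped (not tested), came to 2570 and 4700 for H19 and 91 and 65.1 for Igf2. The log2 ratio of Igf2 to H19 fell from -4.95 ± 0.28 to -6.27 ± 0.26, without overlap (p by exact two-sided permutation = 0.0286, adjusted over the 4 ratios 0.0381), so that a library held 24.9 to 39.5 times as many H19 as Igf2 counts at P5 and 64.8 to 99.6 times as many at P12.

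The miRNA hairpin Mir675 lies inside an exon of H19, at chr7:142577064-142577147. Its mature forms are shown because H19 is the precursor from which they are cut. RefSeq gives them as follows, 5′ to 3′, with the seed (bases 2 to 8) in capitals.
mmu-miR-675-5p: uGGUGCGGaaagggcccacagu
mmu-miR-675-3p: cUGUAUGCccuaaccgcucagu
The seeds differ from each other. The row of Mir675 was at 0 in all libraries, as for other genes inside a longer exon, so the counts of H19 say nothing on how much of it was processed.

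H19 was lowest in P12 replicate 4 and P5 replicate 5, which were also lowest at their age in the sums of 4 lists, those of oral mucosa, proliferation, odontoblasts and bone, and leukocytes. Oral mucosa markers summed to 27710, 32927, 20797 and 4065 normalised counts in P12 replicates 1 to 4, and proliferation genes to 16917, 16551, 13921 and 11871. In the same P12 replicate 4 the odontoblast and leukocyte markers summed to 194953 and 1162. P5 replicate 5 had sums of 443 (mucosa), 9588 (proliferation), 164200 (odontoblasts and bone) and 743 (leukocytes). Marker lists of other cells did not share this order. Enamel epithelium was lowest in P5 replicate 5 (5023524) but highest in P12 replicate 4 (1216828), and mesenchyme the reverse (1072243 and 758439). Endothelium and pericytes were highest in both (5591 and 13579). Skeletal muscle was lowest in P5 replicate 5 (463) but not in P12 replicate 4 (238). Among odontoblast markers, Runx2 was highest in P12 replicate 4 (5467) and Dmp1 in P5 replicate 5 (2078). Without these 2 libraries H19 had log2FC 0.90 (adjusted p = 1.9e-06), and 5 of 5 mucosa markers were higher at P12. This exclusion was chosen after the values had been seen. It takes out the lowest H19 value of each age, which narrows the spread (SE 0.09, against 0.18 with all libraries). The smaller adjusted p is therefore no added support for the rise. The part of these lists in the rise of H19 was not tested.

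**Figure D4:**
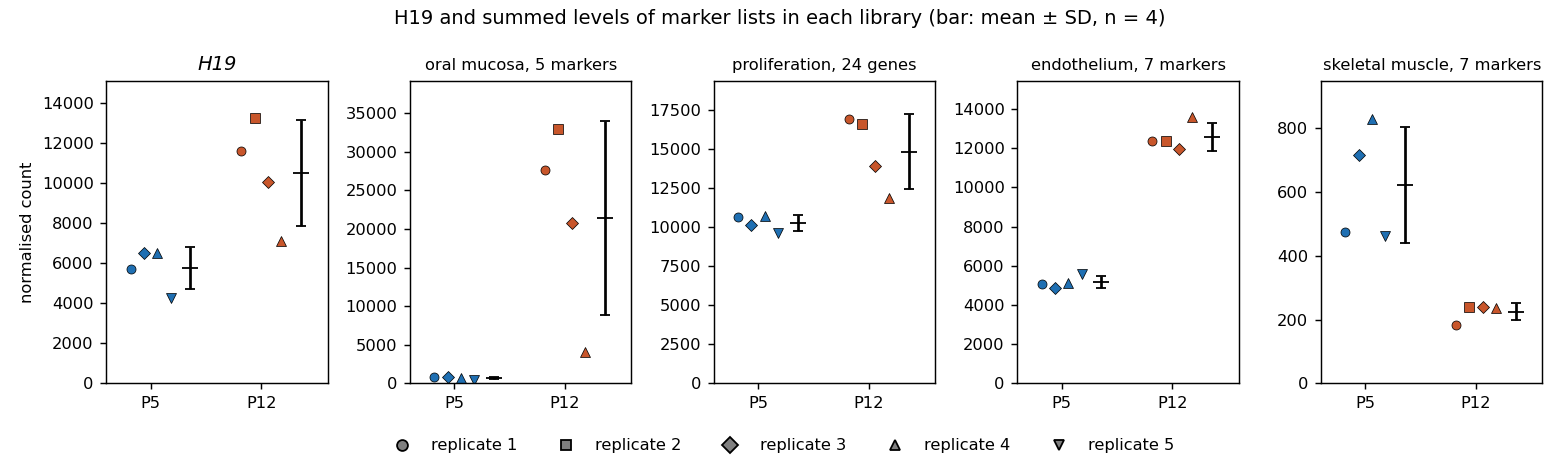
Normalised count of H19 and summed normalised counts of marker lists (oral mucosa, proliferation, endothelium and pericytes, skeletal muscle) in each library, with the mean ± SD of 4 libraries per age. P12 replicate 4 is the lowest P12 library for H19 (7094), oral mucosa (4065) and proliferation (11871), but the highest for endothelium (13579).

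Meg3 (ENSMUSG00000021268) is the non-coding RNA of a cluster on chromosome 12 that also holds the gene for DLK1, a membrane protein that keeps precursor cells from differentiating. In the P5 libraries it was at 5762, 7486, 6475 and 8294 normalised counts, and in the P12 libraries at 2858, 2443, 2369 and 2844. The ages were well apart, and the fall was 2.66-fold (log2FC -1.41, SE 0.12, adjusted p = 1.5e-06). Meg3 spans 109541001 to 109571726 on the forward strand, and 8.3% of its exonic bases are shared with other genes, all of them at 0 in every library.

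Dlk1 (ENSMUSG00000040856, chromosome 12, 109452823 to 109463336, forward strand), 78 kb before Meg3, was low. Normalised counts at P5 were 165, 96.1, 169 and 160, against 118, 109, 70.4 and 79.3 at P12. P5 replicate 3 lay among the P12 libraries. The fall was 1.55-fold (log2FC -0.64, SE 0.22, adjusted p = 0.028), and the adjusted p was 0.07 without P5 replicate 1 (log2FC -0.58), 0.076 without P5 replicate 4 (-0.57), 0.065 without P5 replicate 5 (-0.60), 0.082 without P12 replicate 3 (-0.52) and 0.34 with total count scaling (-0.26). The log2 ratio of Dlk1 to Meg3 was -5.58 ± 0.52 at P5 and -4.82 ± 0.33 at P12, a difference of 0.77 that did not pass (p by exact two-sided permutation = 0.0571, adjusted over the 4 ratios 0.0571).

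From Dlk1 to Dio3, over 828 kb of chromosome 12, the table lists 118 genes, and 7 passed the filter on low counts. Of these 7, 6 were lower at P12, Dlk1 and Meg3 included, and 0 higher, where 28.4% of all genes tested were lower. Rian, a host of small nucleolar RNAs, fell from 1985 ± 254 to 1226 ± 141, log2FC -0.69 (adjusted p = 1.8e-04). Mirg, a host of miRNAs, had log2FC -0.61 (adjusted p = 0.026), Rtl1, a retrotransposon-derived gene needed in the placenta, one of -1.29 (adjusted p = 0.03) and Dio3, which inactivates thyroid hormone, one of -0.80 (adjusted p = 0.002). Dio3os, antisense to the region of Dio3, had 0.19 (adjusted p = 0.54). The calls of Mirg, Rtl1 and Dio3 did not hold with total count scaling (adjusted p = 0.37, 0.09 and 0.064), nor did that of Dlk1, which left Meg3 and Rian called. The call of Rtl1 was also lost with limma-voom (log2FC -1.11, adjusted p = 0.085). That of Mirg was lost too without P5 replicate 5 and P12 replicate 4 (log2FC -0.49, adjusted p = 0.083). Neighbouring genes are not independent measurements. Within 500 kb of H19, by comparison, 6 of 18 tested neighbours were higher and 5 lower, and within 500 kb of Igf1, 4 of 5 were higher and 0 lower. These regions were looked at after their values had been seen.

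Cdkn1c (ENSMUSG00000037664, chromosome 7, 143458339 to 143461050, reverse strand) encodes p57, an inhibitor of cyclin-dependent kinases that holds cells out of the cycle. In the P5 libraries it was at 1066, 1171, 1138 and 1037 normalised counts, and in the P12 libraries at 524, 412, 418 and 390. The ages did not overlap, and the fall was 2.52-fold (log2FC -1.34, SE 0.09, adjusted p = 4.9e-07). Of its exonic bases, 30.7% lie in the antisense gene Gm44732, which had at most 1 count in any library.

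Of the 5 other CDK inhibitors tested, 3 rose and none was called lower: Cdkn2b (log2FC 1.91, adjusted p = 0.0052), Cdkn2c (0.75, adjusted p = 4.8e-04) and Cdkn2d (0.42, adjusted p = 0.024). Cdkn1a and Cdkn1b, which encode p21 and p27, had log2FC of 0.15 (adjusted p = 0.061) and -0.03 (adjusted p = 0.84). Cdkn1a was called higher by DESeq2 (adjusted p = 0.012) and by limma-voom (adjusted p = 0.035). With total count scaling all 5 were called higher, Cdkn1b with log2FC 0.34 (adjusted p = 0.0059). Cdkn2b was at 110 normalised counts in P5 replicate 5 and 2968 in P12 replicate 4, against 395 to 650 and 907 to 1609 in the others, and its log2FC was 1.12 without these 2 libraries. Among all genes tested, 57.2% were called (28.8% higher and 28.4% lower), with a median log2FC of 0.01. Of 24 proliferation genes, 21 rose and 1, the cyclin gene Ccnd2, fell (-0.25, or 0.13 with total count scaling). Their median log2FC was 1.04. The largest rises among them were those of Cdc20, an activator of the mitotic ubiquitin ligase (1.44, adjusted p = 2.4e-04), and Mcm5, a subunit of the replicative helicase (1.42, adjusted p = 1.5e-05).

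In the same imprinted domain, Kcnq1ot1, the long antisense RNA that silences Cdkn1c on the paternal copy, fell from 465 ± 34 to 251 ± 41.7, log2FC -0.89 (adjusted p = 5.4e-05). Phlda2, a maternally expressed gene that limits placental growth, had counts of 0, 0, 1 and 1 at P5 and 13, 7, 7 and 2 at P12 and was too low to test.

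Plagl1 (ENSMUSG00000019817, chromosome 10, 13060504 to 13131694, forward strand) encodes the zinc finger factor ZAC1, known to activate other imprinted genes. Normalised counts at P5 were 566, 594, 593 and 626, against 1188, 1244, 1038 and 1066 at P12. The spread within each age was small beside the difference, a 1.91-fold rise (log2FC 0.93, SE 0.07, adjusted p = 1.3e-06). Of its exonic bases 0.5% are shared with another gene.

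Peg3 (ENSMUSG00000002265, chromosome 7, 6703892 to 6730431, reverse strand), another zinc finger gene and known for its part in maternal behaviour and cell death, went the other way. In the P5 libraries it was at 4695, 4768, 4354 and 4459 normalised counts, and in the P12 libraries at 2345, 2034, 2433 and 2511. That is a 1.96-fold fall without overlap (log2FC -0.97, SE 0.07, adjusted p = 9.5e-07). Its neighbour Usp29, a deubiquitinase gene, was low and fell as well, from 40.5 ± 16.5 to 7.83 ± 4.23, log2FC -2.37 (adjusted p = 6.5e-04).

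Mest (ENSMUSG00000051855, chromosome 6, 30723547 to 30748465, forward strand) encodes a hydrolase-like protein of mesoderm and fat tissue. Normalised counts at P5 were 446, 419, 422 and 591, against 743, 586, 480 and 594 at P12. P5 replicate 5 lay within the P12 range, and the difference missed the threshold (log2FC 0.36, SE 0.14, adjusted p = 0.052, approximate 95% interval 0.08 to 0.64 before adjustment). Without P5 replicate 5 the log2FC was 0.48 (adjusted p = 0.011), and without P12 replicate 3 it was 0.45 (adjusted p = 0.018). Leaving out P12 replicate 1 moved it the other way, to 0.23 (adjusted p = 0.16), and leaving out P5 replicate 3 or 4 gave 0.30 (adjusted p = 0.15 and 0.14). Copg2, a coat protein gene on the opposite strand that takes 23.1% of the exonic bases of Mest, rose from 944 ± 36.3 to 1180 ± 110, log2FC 0.32 (adjusted p = 0.0032). The use of strand in the counting is not given in the sources used here, so reads of both genes may not have been told apart.

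Promoters of 8 of the 10 genes, in 14 windows, were found in RefSeq's table for GRCm38.p6, each from 250 bases before a transcription start to 50 after it (H19 and Cdkn1c were not matched). Those of Igf1 and Plagl1, which rose, and of Meg3 (the first start) and Peg3, which fell, are shown. These 4 genes moved without overlap, as did Igf1r, whose window is not shown. The windows shown are marked for CpG, the dinucleotide that imprinting methylates. Capitals mark CpG, and each line reads 5′ to 3′ on the strand of the gene.
Igf1 (chr10:87860861-87861160, forward strand): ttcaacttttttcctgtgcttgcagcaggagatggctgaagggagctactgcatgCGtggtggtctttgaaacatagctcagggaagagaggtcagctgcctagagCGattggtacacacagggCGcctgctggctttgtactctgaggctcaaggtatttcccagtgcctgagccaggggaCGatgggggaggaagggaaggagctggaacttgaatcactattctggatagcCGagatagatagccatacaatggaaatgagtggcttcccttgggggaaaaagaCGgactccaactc
Plagl1 (chr10:13090582-13090881, forward strand): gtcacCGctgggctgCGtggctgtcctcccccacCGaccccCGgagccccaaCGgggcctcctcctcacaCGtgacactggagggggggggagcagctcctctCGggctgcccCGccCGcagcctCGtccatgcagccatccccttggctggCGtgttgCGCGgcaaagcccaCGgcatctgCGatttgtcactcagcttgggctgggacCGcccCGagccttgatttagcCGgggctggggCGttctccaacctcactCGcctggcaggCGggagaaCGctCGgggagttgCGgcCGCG
Meg3 (chr12:109540746-109541045, forward strand): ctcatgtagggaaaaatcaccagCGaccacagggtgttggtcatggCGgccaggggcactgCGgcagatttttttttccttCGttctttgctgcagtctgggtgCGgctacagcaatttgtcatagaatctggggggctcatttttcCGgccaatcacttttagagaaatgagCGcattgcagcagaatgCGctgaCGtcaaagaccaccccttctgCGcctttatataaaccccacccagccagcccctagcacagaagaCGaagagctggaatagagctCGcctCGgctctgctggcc
Peg3 (chr7:6730370-6730669, reverse strand): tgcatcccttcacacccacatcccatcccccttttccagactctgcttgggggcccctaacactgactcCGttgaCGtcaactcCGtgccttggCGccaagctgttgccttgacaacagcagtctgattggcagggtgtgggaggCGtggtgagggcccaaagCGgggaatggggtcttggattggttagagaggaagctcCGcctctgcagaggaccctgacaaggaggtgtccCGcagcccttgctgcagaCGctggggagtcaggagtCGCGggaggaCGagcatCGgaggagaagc
The windows hold 6 CpG in Igf1, 26 in Plagl1, 13 in Meg3 and 13 in Peg3, against a median of 7 over all 32851 windows in the table. Igf1r had 48, more than any other window of the set, and the 4 windows of Igf2 had 2, 14, 24 and 7. The window with the most CpG and that of Igf1, with 6, both belong to genes that were higher at P12.

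Both strands were searched for GGGGCCCC, which reads the same on both, for TATAAA and for GGGCGG. GGGGCCCC occurred in 1 of the 14 windows, that of Peg3, 201 bases before the start, and in 1.08% of all windows. TATAAA occurred in the first window of Meg3 alone, with 2 overlapping matches, 1 on each strand, of which that on the strand of the gene began 25 bases before the start, and in 13.6% of all windows. GGGCGG was in 35.7% of all windows and in those of Igf1r, Plagl1 and Mest and in 2 of Igf2.

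Ordered by level per kilobase at P5, H19 (2337 normalised counts per kilobase) was followed by Cdkn1c (541), Meg3 (387), Peg3 (343), Igf1r (236), Mest (119), Plagl1 (76), Igf1 (73.7), Igf2 (32.3) and Dlk1 (26). This order rests on full gene length. With unshared exons alone as the length, Igf2 (91) would stand above Plagl1 (76.4) and Igf1 (73.7) at P5, and Mest (198) above Igf1 (190) at P12. The libraries overlapped between the neighbours Meg3 and Peg3, Plagl1 and Igf1, and Igf2 and Dlk1. At P12 the order was H19 (4269), Igf1r (392), Cdkn1c (214), Igf1 (190), Peg3 (175), Mest (152), Meg3 (145), Plagl1 (145), Igf2 (23.1) and Dlk1 (16.6). From Cdkn1c to Plagl1 each gene overlapped the next. Igf1 moved from place 8 to place 4 and Igf1r from 5 to 2, while Meg3 moved from 3 to 7.

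Of 45 other imprinted genes, 41 were tested. At P12, 18 were lower, 6 were higher and 17 were not called, with a median log2FC of -0.35 against 0.01 for all genes. The 24 called genes of 41 are close to the 57.2% called among all genes tested (28.8% higher and 28.4% lower). This split depended on the scaling, since total count scaling gave 9 lower and 15 higher. Grb10, described above, was among those that rose. Among those that fell, Nnat, a small membrane proteolipid of nerve and gland cells, went from 559, 885, 871 and 917 normalised counts at P5 to 83.6, 102, 129 and 237 at P12, log2FC -2.57 (adjusted p = 1.4e-05). Begain, next to the Dlk1 cluster on chromosome 12, had log2FC -0.98 (adjusted p = 0.0025) and Airn, the antisense RNA at Igf2r, one of -0.85 (adjusted p = 6.6e-04).

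**Figure D5:**
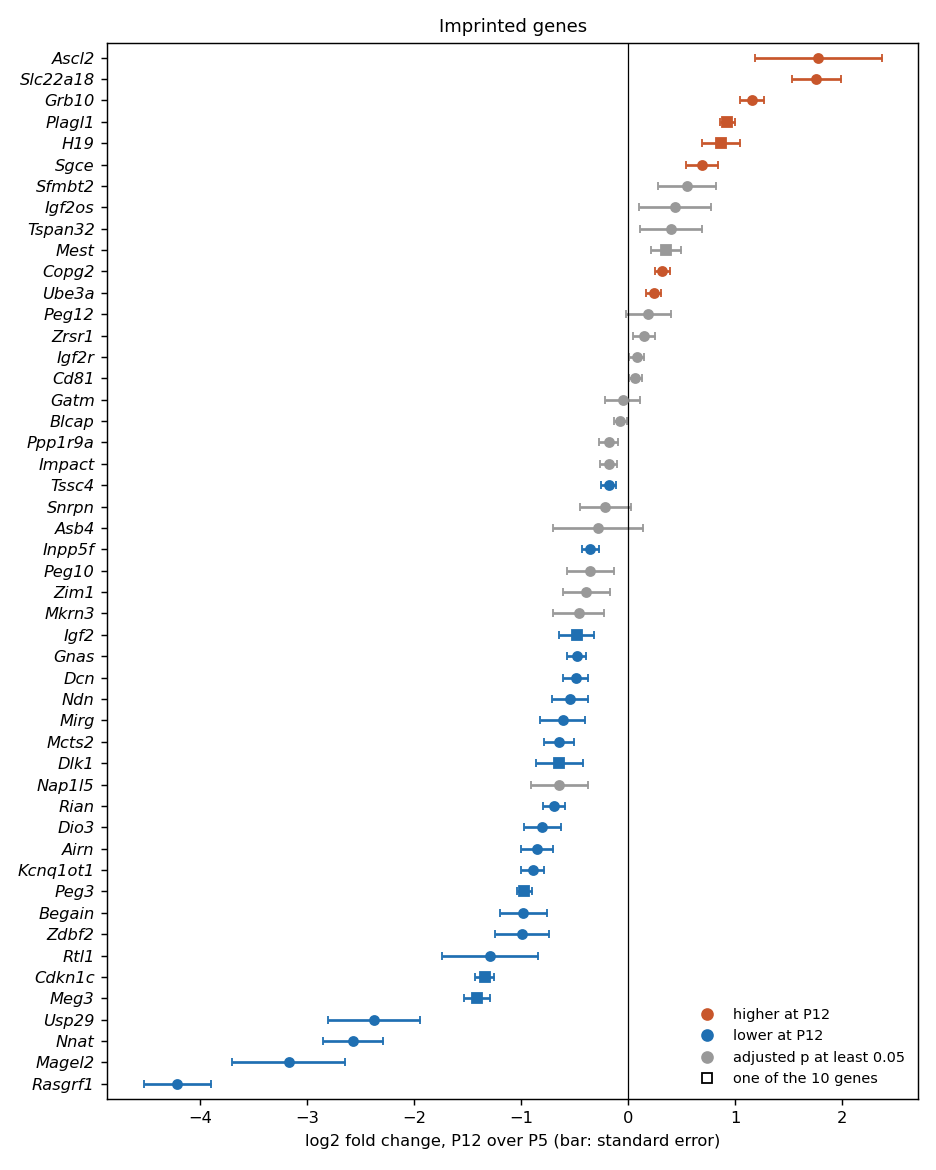
Log2 fold change (P12 over P5, bar: standard error) of the 41 other imprinted genes tested and of 8 genes of the set (squares), coloured as higher, lower or not called. With TMM scaling more of the other imprinted genes are lower (18) than higher (6), while with total count scaling 9 are lower and 15 higher.

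The genes whose profile over the 8 libraries was nearest to that of Igf2, by the root mean square difference of centred log2 normalised counts among 11345 genes, were Thap3, Armc9, Zfp771, Limk1 and Bckdhb, at 0.107 to 0.13 log2 units. The nearest to H19, looked up after its values had been seen, were Spag5, Ccnf, Psat1, Thbs1 and Tk1, at 0.067 to 0.135. Spag5, a spindle protein, Ccnf, a cyclin, and Tk1, a kinase of DNA precursor supply, are known from the cell cycle. Such a gene was also near Igf1, where Mcm5 stood at 0.099. Of the 24 proliferation genes 21 rose, with a median log2FC of 1.04, so this nearness is not particular to H19.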

How the data were processed

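Total RNA of first molar enamel organs (polyadenylated RNA captured, 5 pups per pool, 4 pools per age) was sequenced. The authors deposited whole-number read counts per gene without normalization, with gene coordinates and lengths. The submitters' processing notes name CASAVA and mm39, whereas of the 54532 genes 54495 are in GENCODE M21 for GRCm38 and 53585 have the same start and end there, so coordinates are given as GRCm38. The aligner, the counting program and its use of strand are not given in the sources used here.

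The deposited counts went into edgeR 4.0.16, run in R 4.3.3 (settings: filterByExpr, TMM, glmQLFit and glmQLFTest, no covariate, Benjamini-Hochberg adjustment over 16440 genes, threshold 0.05), and every adjusted p is from this test unless another is named. The standard error is the log2 fold change divided by the root of its F statistic. Normalised counts are scaled to the mean effective library size, 19006280. For ratios within a library (pseudocount 1), all 70 splits were enumerated in an exact two-sided permutation. Alternatives were DESeq2 1.42.0 (named in the paper's methods), limma-voom (limma 3.58.1), other scalings, filters and thresholds, libraries left out and the replicate number as a block. Scripts were checked on simulated data. Between libraries of 1 age, chi-square divided by its degrees of freedom was 4.76 to 74.6, above sampling noise, so none was taken as a duplicate. The pools are separate sets of pups per the paper's methods.

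The 10 genes, the gene lists and the tests were chosen with earlier results of these data known. Named genes are the 10, the 6 largest changes of each of 2 lists that were called and averaged at least 100 normalised counts, fixed genes of the IGF axis and of the imprinted clusters, all tested CDK inhibitors, the 2 largest changes among proliferation genes and the 5 genes most like Igf2. Irs1, Irs2, the Igfbp genes other than Igfbp3, Igfbpl1, Dio3os, Gm49394, Pappa and Ccnd2 were added after their values were seen. So were the marker genes Runx2, Dmp1, Odam, Amtn, Klk4, Epcam and Myh3 and the genes most like H19 and Igf1. One alternative, without P5 replicate 5 and P12 replicate 4, was also added then. Lists were described by counts and medians, with no set test. Sequences are from RefSeq. Computations used scipy 1.17.1, numpy 2.4.6, pandas 2.3.3 and matplotlib 3.10.9.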

Additional observations from a re-analysis of the deposited data

Results flagged for a closer look

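In 2 of 20 combinations of a gene and an age a single library lay far from the other 3, where about 1 is expected by chance. Dlk1 was at 96.1 normalised counts in P5 replicate 3, against 160 to 169 in the other P5 libraries. Mest was at 591 in P5 replicate 5, against 419 to 446. No cause was tested for either.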

How the results depend on the processing

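Igf1, Igf1r, Plagl1, H19, Meg3, Peg3 and Cdkn1c stayed called on the same side in each of 18 alternative fits, and no gene of the 10 changed direction in any. With calls limited to absolute log2FC 1 or more, 3541 of the 16440 genes tested were called (21.5%). Of the 10 genes 3 were called, of 22 IGF partners 11 and of 41 other imprinted genes 8. The log2FC of Igf2 lost its call with total count scaling (-0.10) and lay between -0.59 and -0.39 with 1 library left out. That of Dlk1 lost its call with total count scaling (-0.26) and without P5 replicate 5 and P12 replicate 4 together (-0.51, an alternative chosen after seeing the data), and lay between -0.80 and -0.52 with 1 left out. Mest passed the threshold with total count scaling (0.73), without the 20 most abundant genes in the scaling (0.39), with no filter on low counts (0.37) and without the same 2 libraries (0.50), and lay between 0.23 and 0.48 with 1 left out. The cause was not tested.

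Replicate numbers 1, 3 and 4 occur at both ages. Over all genes tested the deviations of same-numbered libraries correlated between -0.04 and 0.04, so no large common shift was seen. The labels do not say whether such libraries share more than a number. With the replicate number as a block over these 6 libraries, 7710 genes were called, against 8117 without it. The block gave -0.51 for Igf2 (adjusted p = 0.079), -0.67 for Dlk1 (adjusted p = 0.028) and 0.48 for Mest (adjusted p = 0.011). The same 6 libraries without the block gave -0.52 for Igf2 (adjusted p = 0.054), -0.67 for Dlk1 (adjusted p = 0.072) and 0.50 for Mest (adjusted p = 0.019), so that of these 3 only the call of Dlk1 differed between the 2 fits. An exact sign-flip test within the 3 pairs, whose smallest p is 0.25, gave differences of -1.10 for Igf2 to H19, 1.86 for Igf1 to Igf2 and 0.64 for Igf1r to Igf2r. With 1 library left out the smallest p is 0.0571, so that none can pass, and the ratio differences lay between -1.44 and -1.21, 1.65 and 1.94, and 0.61 and 0.75. That of Dlk1 to Meg3 passed with a pseudocount of 10 (0.81) or counts per kilobase (0.79), both with p = 0.0286 in the exact permutation test, and lay between 0.54 and 0.92 with 1 left out. Dlk1 and Igf2 had 76 to 205 counts in a library.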

Other observations

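Rasgrf1 and Magel2, imprinted genes known from nerve cells, had the largest falls of the imprinted genes tested, with log2FC of -4.21 (161 ± 25.5 normalised counts at P5 and 8.6 ± 4.21 at P12) and -3.17 (36 ± 14.4 and 4.01 ± 3.67). Slc22a18, a transporter gene of the domain that holds Cdkn1c, went the other way, from 25.8 ± 5.2 to 87.4 ± 17, log2FC 1.76 (adjusted p = 5.6e-05). These 3 genes were named after their values had been seen.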
